A study of Mus musculus with 9 samples.

Results

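The genes described here are 9 members of the PI3K-mTOR pathway in mouse oocytes: Mtor, Rptor, Rictor, Tsc1, Tsc2, Akt1, Foxo3, Rps6kb1 and Eif4ebp1. They were chosen by name, and every probe set that the platform annotation gives to 1 of these symbols alone was taken on all 9 arrays. Of the 9 genes, 8 had such a probe set, 25 probe sets in all, out of 18193 genes and 45037 probe sets measured. Rps6kb1, which encodes the S6 kinase downstream of mTOR, is not analysed here. The arrays measured mRNA bound to polysomes, the strings of ribosomes that translate it, so a signal depends both on how much of an mRNA the oocyte holds and on how much of it carries ribosomes. Oocytes were collected at the germinal vesicle stage (GV, 0 h after hCG), at metaphase I (MI, 4 h) and at metaphase II (MII, 14 h), with hCG given 48 h after PMSG in every group. There were 3 arrays per stage, labelled as biological replicates. Apart from PMSG and hCG, no treatment or inhibitor and no mutant was part of the groups, and strain and age are not given in the labels. The time after hCG ran with stage, so effects of these cannot be told apart. The description of the MI samples carries the code pGVB, which the labels do not explain. Whether the replicates came from separate animals is not stated, so the p-values cover only array-to-array spread, which may be technical.

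Phosphoinositide 3-kinase makes a membrane lipid that recruits and activates the kinase Akt. Akt phosphorylates FoxO transcription factors, which then leave the nucleus, and it phosphorylates tuberin, the product of Tsc2, which relieves the brake that the TSC complex puts on the GTPase Rheb and so on mTOR complex 1. That complex phosphorylates S6 kinase and the 4E-binding proteins, and so promotes translation from capped mRNAs. In the mouse ovary the pathway is known for its part in the dormancy of primordial follicles, where Foxo3 in the oocyte holds follicles dormant and loss of Tsc1 or Tsc2 in oocytes leads to their early activation. Full-grown oocytes transcribe little, and maturation runs on stored mRNAs whose translation is switched on or off by stage.

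Signal was given as an intensity on a linear scale, and array medians lay between 12.4 and 13.2. All 14 oocyte markers had a signal at or above that of the median gene, an intensity of 50.7, while 5 of 19 granulosa, cumulus and theca cell markers and 1 of 12 blood, immune, endothelial and stromal markers did. The summed intensity of the oocyte markers was 71527 to 75639 on the GV arrays, 62527 to 69369 on the MI arrays and 35879 to 44001 on the MII arrays, and that of the follicle cell markers was 1050.4 to 1139, 1121 to 1446 and 789 to 1204 at these stages. The 5 follicle cell markers at or above the median gene's signal were Cyp11a1, with intensities of 19.5 to 782, Nr5a2 with 13.8 to 725, Star with 39.2 to 403, Inhba with 8.31 to 302 and Amhr2 with 21.8 to 173, while Fshr and Cyp17a1 were the 2 of 19 below 16 on every array. The blood, immune, endothelial and stromal markers summed to 417 to 431 on the GV arrays, 167 to 773 on the MI arrays and 682 to 1033 on the MII arrays, with every MII array above every GV array. Pecam1, at 44.0 to 785, was the 1 of 12 at or above the median gene's signal. Its mean was 347, where the next highest, Dcn, had 36.8, so the sum mostly follows Pecam1. The median log2(intensity + 16) of this list overlapped between stages, at 4.42 to 5.29 for GV, 4.56 to 4.97 for MI and 4.56 to 5.31 for MII. The median log2(intensity + 16) of the follicle cell markers was 5.95 on array MI 3 and 4.69 to 5.16 on the other 8. Without MI 3, 9 of the 50 member changes that involve MI turned in sign, none of them called with or without it, and values without MI 3 stand below for Mtor, Tsc1, Tsc2 and Foxo3. In these bulk samples fewer cells of a type, less RNA per cell and less of that RNA on polysomes cannot be told apart. The part of these shifts in the results below was not tested.

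All of the 8 measured genes except Rptor had a probe set with a mean at or above the median gene's signal. Few member probe sets passed a test between stages, but most of their intervals still held changes of more than 2-fold. The changes were tested with limma on log2(intensity + 16), with p-values adjusted over all 45037 probe sets and a threshold of 0.05. Between MI and GV oocytes 0 of the 25 probe sets passed, as did 0% of all probe sets, and 1 had an unadjusted p under 0.05, against 6.19% of all. Between MII and MI 1 of 25 fell and 0 rose, where 5.42% of all probe sets passed, 3.85% falling and 1.57% rising. Between MII and GV 1 of 25 fell and 0 rose, where 8.98% of all passed, 5.23% falling and 3.75% rising. Both calls were the same Tsc1 probe set. Of the 25 probe sets, 17 had a mean signal at or above that of the median gene. Among probe sets that bright, 14.2% passed between MII and MI and 23.4% between MII and GV, and 1 of these 17 did in each case. By the brightest probe set per gene, 0 of the 8 genes passed in any of the 3 comparisons, where 0%, 7.96% and 12.7% of all genes passed. In each comparison 1 of the 8 had an unadjusted p under 0.05, against 7.87%, 22.4% and 26.7% of all genes.

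**Figure D1:**
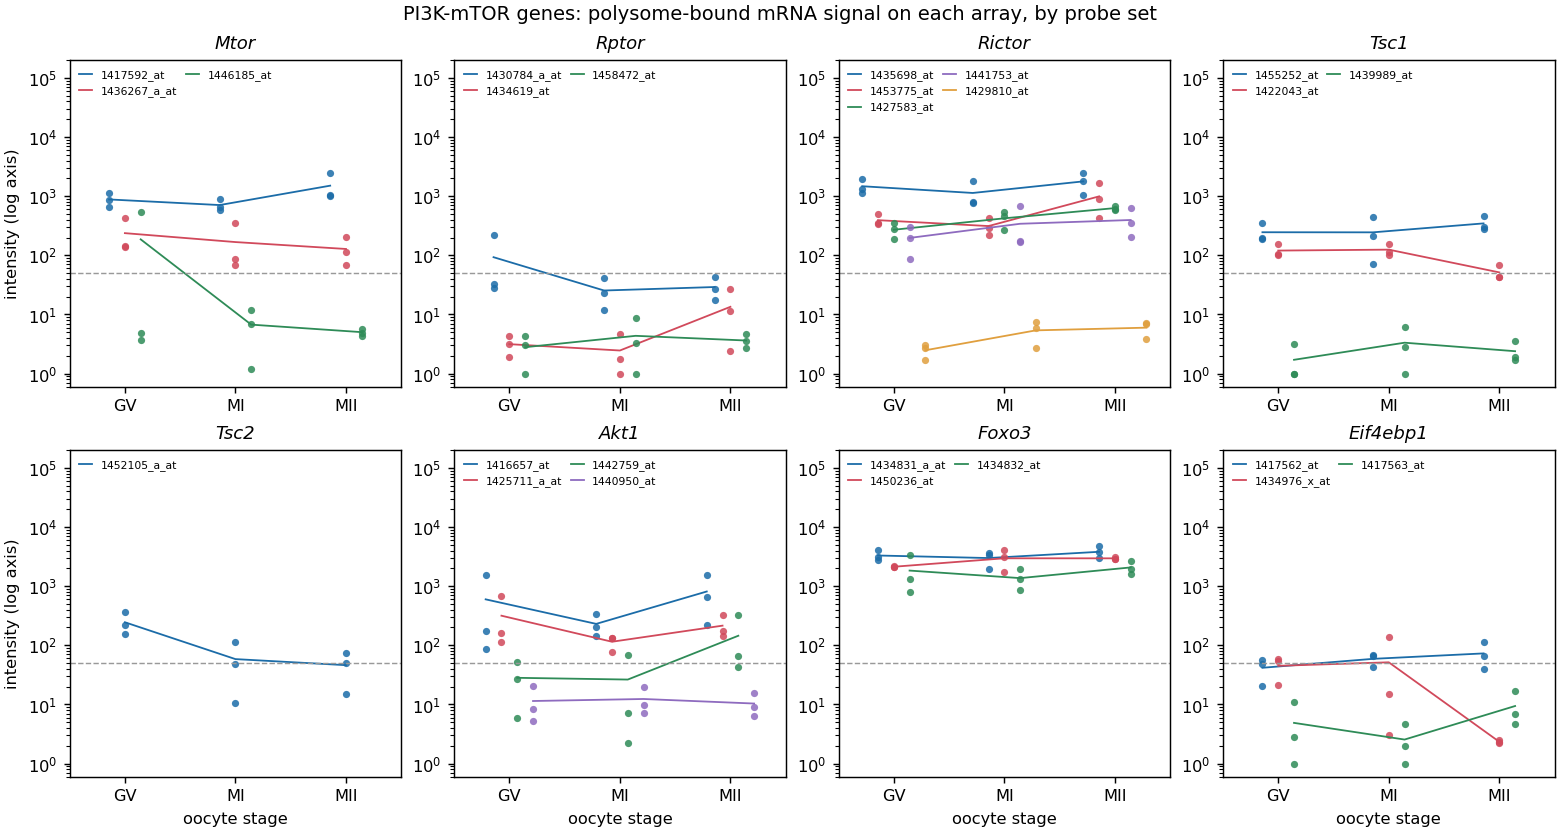
Intensity (log axis) of every probe set of the 8 measured genes on each of the 9 arrays, by stage. Points are arrays, lines join the means of 3 arrays, and the dashed line marks the median gene's signal of 50.7. Foxo3 and the brightest Mtor and Rictor probe sets lay far above that line at every stage, while the 3 GV arrays of Tsc2 lay above all MI and MII arrays.

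Mtor encodes the kinase shared by both mTOR complexes. Its brightest probe set, 1417592_at, had intensities of 662, 1117 and 864 on the GV arrays, 577, 657 and 890.4 on the MI arrays, and 2483, 1029 and 1006 on the MII arrays. All 3 MII arrays lay above all 3 MI arrays, with array MII 1 far above the other 2, and the GV arrays overlapped with both later stages. The log2 change between MII and MI was 0.96 ± 0.39 (SE, n = 3 each), with a 95% confidence interval of 0.07 to 1.85 and a limma adjusted p of 0.257, so it did not pass over all probe sets. Between MI and GV the log2 change was -0.30 (interval -1.19 to 0.59, adjusted p = 0.974), and between MII and GV it was 0.66 (-0.23 to 1.55, adjusted p = 0.436). The other 2 Mtor probe sets gave no matching pattern. Probe set 1436267_a_at changed by -0.13 on the log2 scale between MII and MI (adjusted p = 0.964) with overlapping arrays, and by 0.52 without array MI 3 (adjusted p = 0.786). Probe set 1446185_at read 550.3 on array GV 2 and between 1.18 and 12.1 on the other 8.

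Rptor encodes raptor, the subunit that presents substrates to mTOR complex 1. Its brightest probe set, 1430784_a_at, had a mean intensity of 49.2 and so lay below the median gene's signal. It read 27.7, 33.4 and 218 at GV, 11.7, 41.1 and 23.5 at MI, and 42.9, 17.6 and 27.0 at MII. One array, GV 3, stood alone above the rest, and the other 8 overlapped across stages. The 95% confidence interval of the log2 change was -2.48 to 0.47 for MI minus GV, -1.32 to 1.62 for MII minus MI and -2.33 to 0.61 for MII minus GV, with adjusted p of 0.937, 0.958 and 0.576. The other 2 Rptor probe sets lay between 1.00 and 26.7 on every array.

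Rictor encodes the subunit that defines mTOR complex 2, which phosphorylates Akt. Of its 5 probe sets 4 had a signal at or above that of the median gene. All 4 had a higher fitted mean at MII than at GV, with log2 changes of 0.23, 1.11, 1.21 and 0.95, and 0 of them passed the limma test over all probe sets. Probe set 1427583_at had intensities of 186, 278 and 348 at GV, 458, 264 and 545 at MI, and 684, 591 and 612 at MII. All 3 MII arrays lay above all GV and all MI arrays, while GV and MI overlapped. Its change between MII and GV was 1.21 ± 0.31 on the log2 scale (SE, n = 3 each; interval 0.49 to 1.92), with an adjusted p of 0.0519. That value crossed the threshold at 0.0470 with arrays scaled to one 95th percentile, 0.0451 with only the GV and MII arrays fitted, 0.0307 without array MI 2 and 0.0459 without array MI 3. The change thus passed in 4 of 18 alternative fits, with adjusted p up to 0.173.

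The brightest Rictor probe set, 1435698_at, did not carry that order. It read 1308, 1972 and 1139 at GV, 1841, 769 and 791 at MI, and 2449, 1067 and 1821 at MII, and all stages overlapped. Its log2 change between MII and MI was 0.69 (interval -0.33 to 1.70, adjusted p = 0.536). Probe set 1453775_at read 350.0, 496 and 333 at GV, 429, 219.8 and 289 at MI, and 1673, 420.1 and 884 at MII. Array MII 2 lay among the MI arrays, and the log2 change of 1.46 ± 0.48 (SE, n = 3 each) between MII and MI had an adjusted p of 0.156. Without array MII 2 it was 1.96 with an adjusted p of 0.0435. That was the 1 of 18 alternative fits in which it passed, with adjusted p up to 0.363. The fifth probe set lay between 1.72 and 7.43 on every array.

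Tsc1 and Tsc2 encode hamartin and tuberin, the core of the complex that inhibits Rheb and thereby mTOR complex 1. Tsc1 held the calls among the members, and its probe sets did not move together. Probe set 1422043_at had intensities of 153, 107 and 101 on the GV arrays, 101, 158 and 115 on the MI arrays, and 67.5, 43.6 and 43.3 on the MII arrays. Every MII array lay below every GV and every MI array, and GV and MI overlapped. The stage means were 120.3 ± 28.6 at GV, 125 ± 29.5 at MI and 51.5 ± 13.9 at MII (SD, n = 3 each). The log2 change was -1.06 ± 0.24 for MII minus MI (SE; interval -1.62 to -0.50, limma adjusted p = 0.0463) and -1.01 ± 0.24 for MII minus GV (interval -1.57 to -0.46, adjusted p = 0.0391). Between MI and GV it was 0.05 (interval -0.51 to 0.60).

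Both Tsc1 calls lay near the threshold. The MII minus MI call held in 2 of 18 alternative fits and the MII minus GV call in 4 of 18, with adjusted p up to 0.324 and 0.300. Leaving out 1 array ended the MII minus MI call for every array except MII 1, with adjusted p of 0.0496 to 0.143 over the 9 fits, and ended the MII minus GV call for every array except MI 2 and MII 1, with adjusted p of 0.0416 to 0.121. The brighter Tsc1 probe set, 1455252_at, did not fall with it. It read 199.8, 350.0 and 187 at GV, 448, 215 and 71.5 at MI, and 459, 283 and 298 at MII, with overlap between all stages. Its log2 change was 0.75 for MII minus MI (interval -0.57 to 2.07, adjusted p = 0.628) and 0.49 for MII minus GV (interval -0.83 to 1.82, adjusted p = 0.756). Without array MI 3 the MII minus MI change was 0.12 (adjusted p = 0.954), and the MI minus GV change was 0.38 in place of -0.26. Over the 9 arrays Pearson's r between the 2 probe sets was -0.38, given as a description, and the last Tsc1 probe set lay between 1.00 and 6.20.

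Tsc2 had a single probe set, 1452105_a_at. Its intensities were 155, 360.3 and 221 on the GV arrays, 49.2, 115 and 10.8 on the MI arrays, and 73.4, 15.2 and 49.9 on the MII arrays. All 3 GV arrays lay above all MI and all MII arrays, and MI and MII overlapped. It was the 1 member probe set of 25 whose GV and MI arrays did not overlap, against 11.4% of all probe sets. The log2 change was -2.02 ± 0.64 for MI minus GV (SE, n = 3 each; interval -3.49 to -0.54, adjusted p = 0.633) and -2.12 ± 0.64 for MII minus GV (interval -3.60 to -0.65, adjusted p = 0.0895). Neither passed over all probe sets. The MII minus GV change crossed the threshold at 0.0476 when the lowest 40% of probe sets were left out and at 0.0451 without array MI 3, whose Tsc2 intensity of 10.8 was the lowest. It passed in these 2 of 20 alternative fits, with adjusted p up to 0.241. Between MII and MI the log2 change was -0.11 (interval -1.58 to 1.37). Without array MI 3 it was -0.70, and the MI minus GV change was -1.42 (adjusted p = 0.698).

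**Figure D2:**
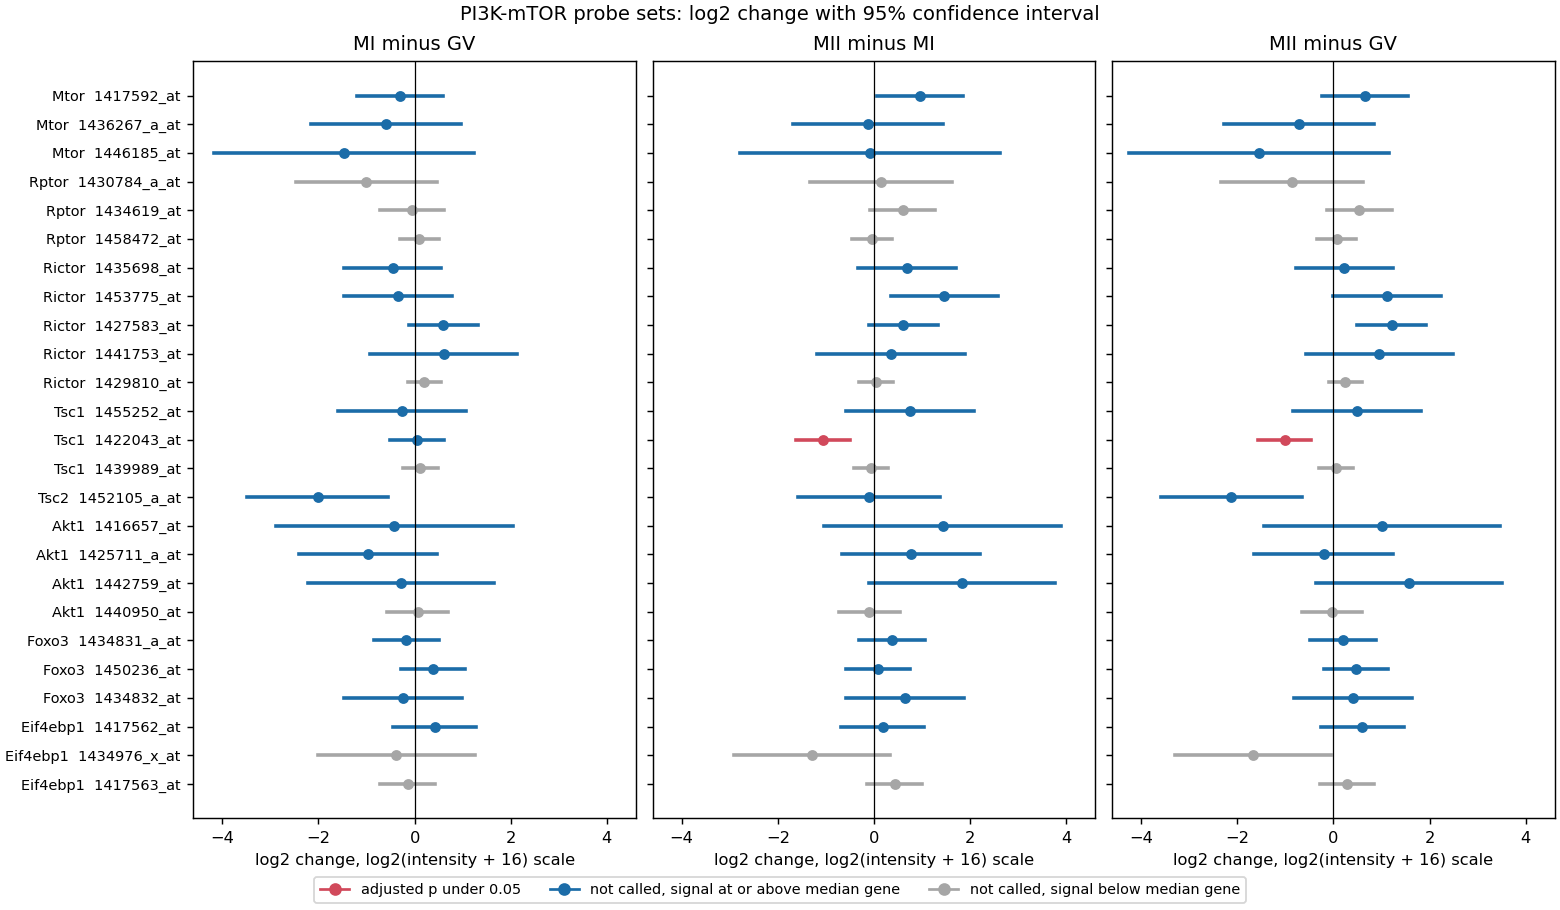
Change on the log2(intensity + 16) scale of each of the 25 member probe sets in the 3 comparisons, with the 95% confidence interval of the limma fit. Red marks the 1 Tsc1 probe set that passed in MII minus MI and in MII minus GV, blue the others at or above the median gene's signal, and grey those below it; most intervals are wider than the change they surround.

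Akt1 encodes one of the Akt kinases that relay PI3K signals. Its brightest probe set, 1416657_at, read 1535, 173 and 87.0 at GV, 343, 145 and 203 at MI, and 1572, 218 and 646 at MII. Arrays GV 1 and MII 1 were the highest, and the stages overlapped. The log2 changes were -0.42 for MI minus GV, 1.43 for MII minus MI and 1.01 for MII minus GV, each with an SE of 1.06 and adjusted p of 0.994, 0.616 and 0.726. The interval of the MII minus MI change reached from -1.03 to 3.89, so large changes in either direction could have been missed. Probe set 1425711_a_at was also highest on array GV 1, at 675 against 112 to 163 on the other GV arrays. Its arrays read 174, 141 and 329.7 at MII, all above the MI arrays at 135, 78.3 and 131. The log2 change between MII and MI was 0.77 (interval -0.67 to 2.20, adjusted p = 0.657), and Pearson's r of the 2 probe sets over 9 arrays was 0.76. A further Akt1 probe set, 1442759_at, read 327 on array MII 2 and 2.20 to 69.8 on the other 8, and the last one lay between 5.23 and 20.7.

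Foxo3 encodes the FoxO transcription factor that Akt phosphorylates in oocytes. It was measured by 3 probe sets, each with intensities of 803.5 or more on every array. Probe set 1434831_a_at averaged 3298 ± 675 at GV, 2988 ± 893 at MI and 3810.2 ± 855 at MII (SD, n = 3 each), and all stages overlapped. Its log2 changes were -0.17 for MI minus GV (interval -0.85 to 0.51), 0.37 for MII minus MI (-0.31 to 1.06) and 0.20 for MII minus GV (-0.48 to 0.88), with adjusted p of 0.984, 0.643 and 0.816. No bound of these intervals lay further than 1.06 from 0. Without array MI 3 the MI minus GV change was 0.10 and the MII minus MI change 0.10.

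Probe set 1450236_at of Foxo3 had tight GV and MII arrays. It read 2147, 2080.1 and 2161 at GV, 1738, 3087 and 4049.9 at MI, and 3098, 2914 and 2849 at MII. The MII arrays all lay above the GV arrays, and the MI arrays spanned both. The change between MII and GV was 0.47 on the log2 scale (interval -0.19 to 1.13, adjusted p = 0.462). Probe set 1434832_at ranged from 803.5 to 3378 at GV, 857 to 1927 at MI and 1636 to 2627 at MII, and its log2 change between MII and GV was 0.40 (adjusted p = 0.788). One more probe set carries the symbols of Foxo3 and another gene and was not used.

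Eif4ebp1 encodes 4E-BP1, which binds the cap-binding protein eIF4E and blocks translation until mTOR complex 1 phosphorylates it. Its brightest probe set, 1417562_at, read 48.9, 20.6 and 55.6 at GV, 65.8, 42.9 and 68.4 at MI, and 66.5, 113 and 39.6 at MII. The stages overlapped, and the log2 changes of 0.42, 0.18 and 0.60 for MI minus GV, MII minus MI and MII minus GV had adjusted p of 0.954, 0.896 and 0.476. Probe set 1434976_x_at, of a class that can also bind similar transcripts, read 21.4, 59.0 and 54.5 at GV, 15.0, 3.10 and 137 at MI, and 2.46, 2.25 and 2.30 at MII. The MII arrays lay below both other stages, and GV and MI overlapped. Its log2 change between MII and GV was -1.67 (interval -3.29 to -0.04, adjusted p = 0.237), and it crossed the threshold at 0.0214 without array MI 3 and at 0.0296 with only the GV and MII arrays fitted. It passed in these 2 of 18 alternative fits, with adjusted p up to 0.450. The last Eif4ebp1 probe set lay between 1.00 and 16.8.

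Counted by arrays that did not overlap, 5 of the 25 member probe sets separated MII from MI, against 22.1% of all probe sets, and 6 of 25 separated MII from GV, against 25.7%. These shares, 20% and 24% of the members, lie close to those of all probe sets. Among the 17 brighter member probe sets 4 separated in each of these comparisons, where 39.9% and 48.3% of all probe sets of that signal did. The median log2 change of the 17 was -0.28 for MI minus GV, 0.61 for MII minus MI and 0.47 for MII minus GV, where the medians of all probe sets of that signal were 0.04, -0.06 and -0.07. Without array MI 3 the median of the 17 was -0.02 for MI minus GV and 0.49 for MII minus MI. Several of the 17 belong to the same gene, so they are not separate members. By the brightest probe set of each of the 8 genes the medians were -0.36, 0.53 and 0.36 in the 3 comparisons. Over all genes they were 0.01, -0.02 and -0.03. Whether the members shifted as a set was not tested. A 95% confidence interval inside a 2-fold change either way was reached by 2, 1 and 1 of the 17 in these comparisons, and one inside a 4-fold change by 10, 11 and 10. With 3 arrays per stage most of these intervals thus still held changes of more than 2-fold.

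Another 108 genes of the pathway were listed by role, and 99 of them had a probe set of their own. The remaining 9 are not analysed here. Counted by the brightest probe set, 0 of the 99 passed between MI and GV, as did 0% of all genes, and 12 (12.1%) had an unadjusted p under 0.05 in limma, against 7.87% of all genes. Between MII and MI 0 rose and 8 fell, where 7.96% of all genes passed, 2.06% rising and 5.9% falling. Between MII and GV 5 rose and 6 fell, where 12.7% of all genes passed, 4.8% rising and 7.92% falling. The median log2 changes of the list were 0.01, -0.08 and -0.09 in the 3 comparisons, against 0.01, -0.02 and -0.03 over all genes. The genes named below are those with the largest log2 changes among the calls, together with Rheb, Eif4e, Eif4ebp2, Rps6, Mlst8, Deptor and Pdpk1 whatever their values, and Pik3c3, Eif4b, Sec13, Pik3r1 and Cdkn1b were added after their values were seen.

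**Figure D3:**
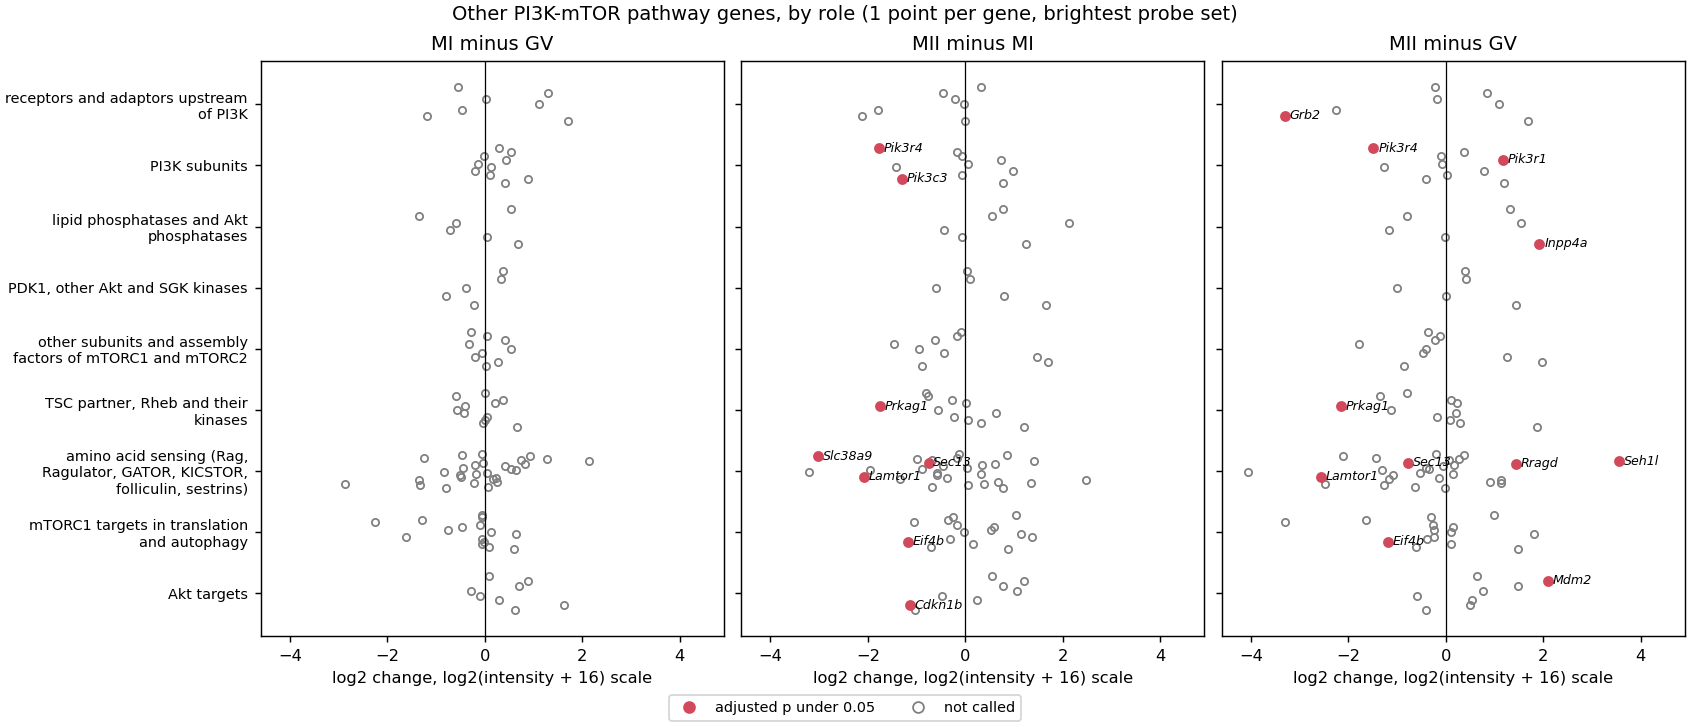
Change on the log2(intensity + 16) scale of the 99 other pathway genes, 1 point per gene by its brightest probe set, grouped by role. Filled and named points passed at an adjusted p under 0.05: 0 genes in MI minus GV, 8 in MII minus MI, all below 0, and 11 in MII minus GV, 5 above and 6 below 0.

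Among 10 PI3K subunits 2 fell between MII and MI, and 1 rose and 1 fell between MII and GV. Each is 20% of the 10, where 7.96% of all genes passed between MII and MI and 12.7% between MII and GV. Differences between roles were not tested. Pik3r4 encodes the regulatory subunit of the class III lipid kinase complex that acts in autophagy and vesicle traffic. Its intensities were 2329, 1739 and 1833 at GV, 3056, 2389 and 1838 at MI, and 798, 689 and 585 at MII, with every MII array below every other. The log2 change was -1.77 ± 0.23 for MII minus MI (SE, n = 3 each; limma adjusted p = 0.00651) and -1.49 for MII minus GV (adjusted p = 0.00795). Pik3c3, the catalytic partner of Pik3r4, read 207, 173 and 227 at GV, 436, 387 and 337 at MI, and 149, 149 and 142 at MII. Its MI arrays stood above both other stages, and it fell by 1.30 on the log2 scale between MII and MI (adjusted p = 0.00534). Pik3r1 encodes the main regulatory subunit of class I PI3K. It averaged 755 ± 220.4 at GV, 1012 ± 172 at MI and 1671 ± 159 at MII (SD, n = 3 each) and rose by 1.17 between MII and GV (adjusted p = 0.0238). That call ended without array GV 1, GV 2, MII 1, MII 2 or MII 3, with adjusted p of 0.0518 to 0.0780.

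Among 7 receptors and adaptors upstream of PI3K 1 fell, and among 6 phosphatases of the pathway 1 rose, both between MII and GV. These are 14.3% of the 7 and 16.7% of the 6, against 12.7% of all genes. Grb2, an adaptor that links receptor tyrosine kinases to their effectors, read 301, 262 and 841 at GV, 197, 182 and 135 at MI, and 38.5, 62.1 and 2.38 at MII. The stages did not overlap, and the log2 change between MII and GV was -3.31 ± 0.60 (SE, n = 3 each; adjusted p = 0.0144). Its other bright probe set changed by 0.04 in that comparison. Inpp4a encodes an inositol lipid phosphatase. Its arrays read 144, 48.1 and 63.2 at GV, 142, 151 and 112 at MI, and 268, 442 and 324 at MII, so MII lay above both other stages. It rose by 1.92 between MII and GV (adjusted p = 0.0147), with a value of 0.0540 without array GV 3.

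Among 5 genes of PDK1 and the other Akt and SGK kinases 0 passed in any comparison, and among 9 other subunits and assembly factors of the mTOR complexes 0 passed in limma. Over all genes 0%, 7.96% and 12.7% passed in MI minus GV, MII minus MI and MII minus GV. At an unadjusted p under 0.05 there were 1, 1 and 1 of the 5 and 0, 3 and 2 of the 9 in MI minus GV, MII minus MI and MII minus GV, against 7.87%, 22.4% and 26.7% of all genes. Pdpk1, whose kinase activates Akt, read 1112, 2169.9 and 1526 at GV, 926, 904 and 834 at MI, and 1559.6, 1343 and 1749.9 at MII. The MI arrays lay below those of both other stages, but the difference did not pass, with log2 changes of -0.79 for MI minus GV (adjusted p = 0.631) and 0.79 for MII minus MI (adjusted p = 0.137). Deptor encodes an inhibitory partner of mTOR. Its brightest probe set read 300.1, 642 and 111 at GV, 724, 210.0 and 259 at MI, and 1293, 1247 and 942 at MII, with MII above both other stages. The log2 change between MII and GV was 1.97 (interval 0.48 to 3.46, adjusted p = 0.118). Mlst8, the subunit common to both complexes, lay between 7.92 and 123 with overlapping stages.

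Among 11 genes of the TSC partner, Rheb and their kinases 1 fell, between MII and MI and between MII and GV. That is 9.09% of the 11 in each case, against 7.96% and 12.7% of all genes. The gene that fell was Prkag1, a regulatory subunit of the AMP-activated kinase that acts on the TSC complex. Prkag1 read 4693, 2963 and 2399 at GV, 2283, 2102 and 3039 at MI, and 1019, 798 and 444 at MII, with MII below both other stages. Its brightest probe set, 1433533_x_at, is of the class that can also bind similar transcripts. The log2 change was -2.15 ± 0.36 for MII minus GV (SE, n = 3 each; adjusted p = 0.0107) and -1.75 ± 0.36 for MII minus MI (adjusted p = 0.0337). The second call ended without array GV 2, MI 1, MI 2, MI 3, MII 2 or MII 3, with adjusted p of 0.0576 to 0.0907. Rheb itself, the GTPase that activates mTOR complex 1, averaged 698 ± 38.1 at GV, 926 ± 499 at MI and 830.2 ± 167 at MII (SD, n = 3 each). Its log2 change between MII and GV was 0.23 (interval -0.78 to 1.23, adjusted p = 0.872).

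Among 28 genes of amino acid sensing upstream of mTOR complex 1, 3 fell between MII and MI, and 2 rose and 2 fell between MII and GV. These are 10.7% and 14.3% of the 28, near the 7.96% and 12.7% of all genes. Lamtor1 anchors the Ragulator complex to the lysosome. It read 4237, 2855 and 2404 at GV, 2805, 2987 and 1260.1 at MI, and 647, 334.0 and 596 at MII, and every MII array lay below every other. The log2 change was -2.57 ± 0.41 for MII minus GV (SE, n = 3 each; adjusted p = 0.00866) and -2.08 ± 0.41 for MII minus MI (adjusted p = 0.0286). The MII minus MI call ended without array GV 2, MI 1, MI 2, MII 1, MII 2 or MII 3, with adjusted p of 0.0506 to 0.0976. A second Lamtor1 probe set fell by 1.68 between MII and GV (adjusted p = 0.0351), and the last one changed by -0.90 without passing.

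Slc38a9, a lysosomal sensor of arginine, read 633, 181 and 837 at GV, 1046, 878 and 759.5 at MI, and 208, 80.7 and 47.8 at MII. Its GV and MII arrays overlapped, and the log2 change between MII and GV was -2.10 (limma adjusted p = 0.0869). It fell by 3.02 on the log2 scale between MII and MI (adjusted p = 0.0333), and a second probe set by 2.32 (adjusted p = 0.0325). The first probe set, 1447784_x_at, is of the class that can also bind similar transcripts. The call of the first ended without array GV 1, MI 1, MI 2, MI 3, MII 2 or MII 3, with adjusted p of 0.0526 to 0.105. Seh1l and Sec13 are shared by the nuclear pore and by GATOR2, which acts upstream of the Rag GTPases. Seh1l read 93.0, 12.3 and 15.0 at GV, 119.9, 265 and 203 at MI, and 615, 524 and 442 at MII, with no overlap between stages. It rose by 3.56 ± 0.53 between MII and GV (SE, n = 3 each; adjusted p = 0.00624), and another probe set of it changed by 1.58 without passing. By the mean of all its probe sets the change was 0.91 (adjusted p = 0.0169).

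Sec13 fell by 0.78 between MII and GV (adjusted p = 0.0279) and by 0.75 between MII and MI (adjusted p = 0.0452). The first call ended without array GV 1, GV 2, MII 1 or MII 3, with adjusted p of 0.0708 to 0.0887, and the second without every array except GV 1, with adjusted p of 0.0505 to 0.140. Rragd, one of the Rag GTPases, read 62.5, 30.6 and 55.3 at MII, against 14.3, 7.54 and 2.66 at GV. It rose by 1.43 between MII and GV (adjusted p = 0.0229), with a mean signal below that of the median gene. Without array GV 2, GV 3, MII 1 or MII 3 its adjusted p was 0.0706 to 0.0790.

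**Figure D4:**
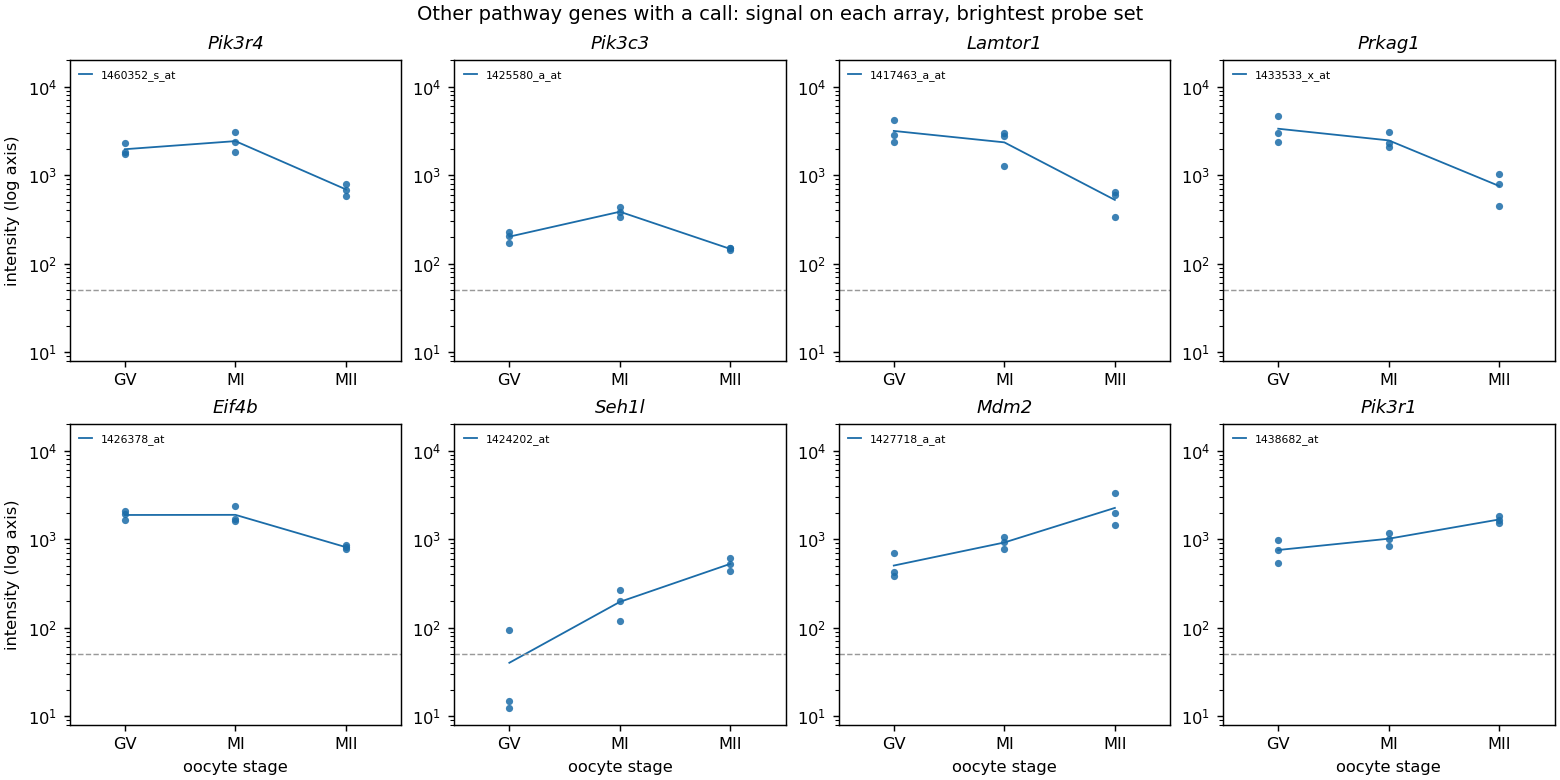
Intensity (log axis) of 8 other pathway genes with a call, on each array by stage; points are arrays, lines join the means of 3 arrays, and the dashed line marks the median gene's signal of 50.7. Lamtor1, Prkag1, Pik3r4 and Eif4b were lowest on the MII arrays, Seh1l, Mdm2 and Pik3r1 highest there, and Pik3c3 was highest on the MI arrays.

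Among 15 targets of mTOR complex 1 in translation and autophagy 1 fell, between MII and MI and between MII and GV. That is 6.67% of the 15 in each case, against 7.96% and 12.7% of all genes. Eif4b encodes a cofactor of the helicase that unwinds mRNA leaders, and S6 kinase phosphorylates it. It read 1905, 2089 and 1638 at GV, 2370.5, 1675 and 1605 at MI, and 773, 806 and 857 at MII, with every MII array below every other. The log2 change was -1.19 ± 0.19 for MII minus GV (SE, n = 3 each; adjusted p = 0.00907) and -1.18 ± 0.19 for MII minus MI (adjusted p = 0.0144). Eif4ebp2, a second 4E-binding protein, had log2 changes of -1.61 for MI minus GV (adjusted p = 0.625) and 1.36 for MII minus MI (adjusted p = 0.209). Eif4e, the cap-binding protein that the 4E-binding proteins hold, averaged 3002 ± 1283 at GV, 2747 ± 419 at MI and 2180.3 ± 156 at MII (SD, n = 3 each) by its brightest probe set. Its log2 change between MII and GV was -0.38 (adjusted p = 0.585). Rps6 encodes the ribosomal protein that S6 kinase phosphorylates. Its brightest probe set with 1 symbol read 4475 on array GV 1 and 1.10 to 44.4 on the other 8, so these values describe 1 array. Another 9 probe sets carry the symbol of Rps6 with others and were not used, so the Rps6 signal is not settled here.

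Among 8 other targets of Akt 1 fell between MII and MI and 1 rose between MII and GV. That is 12.5% of the 8 in each case, against 7.96% and 12.7% of all genes. Mdm2 encodes the ligase that marks p53 for degradation. It read 429, 379.8 and 701 at GV, 927, 778 and 1048 at MI, and 1989, 3347 and 1433 at MII, and the stages did not overlap. It rose by 2.09 ± 0.35 between MII and GV (SE, n = 3 each; adjusted p = 0.0103), and a second probe set rose by 2.34 (adjusted p = 0.0127). Cdkn1b encodes the cyclin-dependent kinase inhibitor p27. It fell by 1.14 between MII and MI (adjusted p = 0.0376). That call ended without array GV 1, MI 1, MI 2, MI 3, MII 1, MII 2 or MII 3, with adjusted p of 0.0571 to 0.103.

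Other processing ended some of these pathway calls or changed their size. With a pseudocount of 1, 7 of the 8 calls between MII and MI were lost, all but that of Slc38a9, with adjusted p of 0.0598 to 0.426, and 4 of the 11 between MII and GV were lost, those of Pik3r4, Pik3r1, Eif4b and Sec13, with adjusted p of 0.0749 to 0.349. With the mean of all probe sets of a gene, the MII minus MI calls of Slc38a9, Prkag1 and Eif4b were lost, with adjusted p of 0.0660 to 0.133. By that mean the log2 change was -0.94 for Slc38a9 and -1.38 for Lamtor1 between MII and MI, and -1.63 for Grb2 and 0.73 for Rragd between MII and GV. With pseudocounts of 1 and 64 the Rragd change between MII and GV was 2.63 and 0.64, and it still passed. With an intensity trend the MII minus MI calls of Pik3c3, Cdkn1b and Sec13 were lost, with adjusted p of 0.135 to 0.168. The trend also ended the MII minus GV calls of Sec13 and Rragd, with adjusted p of 0.0883 to 0.102. With only the stages compared in the fit, the MII minus MI calls of Lamtor1, Prkag1 and Sec13 were lost, with adjusted p of 0.0616 to 0.0700. That fit also ended the MII minus GV calls of Sec13 and Pik3r1, with adjusted p of 0.0501 to 0.0612.

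The genes whose pattern over the 9 arrays was most like that of a member were found by Pearson's r of log2(intensity + 16) over 8740 other genes, taken as a description of 9 arrays that share stage and chip. Each r below is the highest of 8740 over only 9 arrays, and how high it would be for unrelated genes was not tested. Each member stands here for its brightest probe set alone, which need not follow the rest of its gene. Among the 17 brighter probe sets, its r with those of the same gene was -0.40 and 0.18 for Foxo3. It was 0.04 and 0.13 for Mtor, -0.38 for Tsc1, 0.84, 0.25 and 0.11 for Rictor, and 0.76 and 0.11 for Akt1. Rptor, Tsc2 and Eif4ebp1 had no such pair. For Tsc2 the nearest was Pip4k2c with r = 0.98. For Foxo3 it was Vamp7 with r = 0.97, for Rptor Casp9 with 0.95, and for Tsc1 Osbpl8 with 0.95. For Eif4ebp1 it was Plp2 with 0.95, for Mtor Sidt1 with 0.93, for Rictor Vcl with 0.93 and for Akt1 Atg3 with 0.93. The Rptor pattern is mainly the high reading on array GV 3, and the Akt1 pattern mainly the high readings on arrays GV 1 and MII 1.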

How the data were processed

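Polysome-bound mRNA was measured on 9 Affymetrix Mouse 430 2.0 arrays. Per the labels' protocols, it was column-purified, reverse-transcribed, linearly amplified and biotin-labelled. The deposited values are intensities on a linear scale, 1 per probe set and array. How probes were summarised and arrays scaled is not given in the sources used here. No arrays held identical values. Of 45101 probe sets 64 controls were left out. Values were analysed as log2(intensity + 16), which understates changes of low signals, in R 4.3.3 with limma 3.58.1 (lmFit, then eBayes). One model of 3 stage means was fitted over 9 arrays, with two-sided tests and Benjamini-Hochberg adjustment, and the script was tested on simulated data. Intervals are 95% intervals of that fit. A gene was counted by its probe set with the highest mean. Symbols came from the platform annotation (34945 probe sets with 1 symbol, 932 with several, 9160 with none), and 18032 of 18193 gene IDs were found in RefSeq (GRCm38.p6). For the other pathway genes, up to 4 that rose and 4 that fell most were named per comparison, plus Rheb, Eif4e, Eif4ebp2, Rps6, Mlst8, Deptor and Pdpk1. Members and lists were chosen with earlier results of these data known. Alternatives were other pseudocounts, scalings, filters, probe set rules and models, and fits without 1 array.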

Additional observations from a re-analysis of the deposited data

How the results depend on the processing

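Of 75 member results (25 probe sets in 3 comparisons), 69 never passed under any setting tried. The count of member probe sets that fell, 1 in each comparison with MII, was 0 for MII minus MI with pseudocounts of 1 and 64, quantile normalization, scaling to the 95th percentile, the lowest 40% of probe sets left out, 1 probe set or the mean per gene, an intensity trend, the replicate block and only 2 stages. It was 0 for MII minus GV with a pseudocount of 1, quantile normalization, 95th percentile scaling, 1 probe set or the mean per gene, the trend and the replicate block. The fit with 1 probe set per gene left out the called Tsc1 probe set, and the mean per gene merged it with the others of Tsc1. The counts of 0 in these fits per gene thus do not bear on that call. The count that rose for MII minus GV was 1 with 95th percentile scaling and with only 2 stages. Of the other pathway genes 8 fell for MII minus MI, but 1 with a pseudocount of 1 and 5 with the mean per gene, the trend or only 2 stages. The 0 that rose became 1 with quantile and 95th percentile scaling and 2 with the mean per gene, and the 5 that rose for MII minus GV became 8 with quantile normalization and with the mean per gene. Without 1 array at a time, members that fell numbered 0 to 1 (MII minus MI) and 0 to 2 (MII minus GV), and members that rose 0 to 1 in both. Other pathway genes that fell then numbered 3 to 7 and 5 to 8, and those that rose 0 to 2 and 3 to 8. All MI minus GV counts stayed at 0. Over all probe sets the share of calls that rose was 28.9% for MII minus MI and 41.8% for MII minus GV, against 43.8% and 51.1% with quantile normalization, 43.5% and 52.5% with 95th percentile scaling and 15.1% and 33.6% with a pseudocount of 1. Same-numbered arrays correlated between -0.000782 and 0.212 in their deviations from stage means, and arrays of other numbers between -0.254 and 0.112. Of the 9 arrays 7 correlated best with their own number. The same-number values were 0.0795 to 0.212 for numbers 1 and 3, and 0.00804, 0.0323 and -0.000782 for number 2. Whether the numbers mark a pairing was not tested. The main fit did not take the number as a pairing, since the labels name nothing that it shares. Counts with the replicate block stand above. The cause of these moves was not tested. Background was not measured, and 8 of the 25 probe sets, all 3 of Rptor among them, lay below the median gene's signal.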

Other observations

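Cdkn1b and Pik3c3, which fell between MII and MI, had their highest arrays at MI, and they were picked after their values were seen. Cdkn1b read 262, 183 and 329 at GV, 822, 779 and 839.6 at MI, and 278, 429.8 and 388 at MII. Its log2 change for MI minus GV was 1.63 ± 0.24 (SE, n = 3 each) with a limma adjusted p of 0.204, in a comparison where 0 of 45037 probe sets passed and 2789 had an unadjusted p under 0.05. A second Cdkn1b probe set changed by 1.91 in the same comparison (adjusted p = 0.465). Pik3c3 changed by 0.88 for MI minus GV (adjusted p = 0.272), with all MI arrays above all GV arrays.

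The probe sets of Eif4e disagreed. The brightest changed by -0.38 for MII minus GV, while 1423220_at read 3699, 4238 and 4024.7 at MII, against 1628 (GV 1), 1029 (GV 2) and 1355 (GV 3), and rose by 1.59 (limma adjusted p = 0.00335). The last one, 1450909_at, changed by 1.29 (adjusted p = 0.0710). All 6 Deptor probe sets above the median gene's signal had log2 changes above 0 for MII minus GV, the 5 besides the brightest between 0.83 and 1.50. In the main fit 0 of them passed. Deptor rose in 1 of 20 alternative fits for MII minus GV (limma adjusted p = 0.0139), and in 0 of the 9 fits without 1 array.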
